A study of Mus musculus with 2 samples.

Results

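The genes described here cut cytosolic proteins into peptides and bring those peptides onto MHC class I. They are Psmb8, Psmb9, Psmb10, Psme1, Tap1, Tap2, Tapbp, Tapbpl, Erap1 and Nlrc5, that is, 10 of the 32285 genes in the deposited matrix, matched by symbol and chosen as a pathway. All 10 were found. The data are 2 droplet single-cell RNA libraries (10x Genomics) of breast tumours grown from 4T1 cells, a line from a mouse mammary tumour that stands in for triple-negative disease. The knockout library came from tumours of 4T1 cells given a K2 guide RNA, with the genotype K2-KO, where K2 stands for Kindlin-2. The control library came from tumours of 4T1 cells given a control guide RNA (Ctrl sgRNA), with the genotype WT. In both groups female BALB/c mice received the cells in their mammary fat pads, and tumours taken at 150 mm3 were digested for 45 min and sorted live by mCherry signal. The guide RNA was in the injected cells, so immune cells and fibroblasts in both libraries are host cells. How many tumours were pooled and which sorted fraction was loaded is not given in the sources used here.

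Proteins tagged for destruction are cut by the proteasome, in which the catalytic subunits Psmb8, Psmb9 and Psmb10 can take the places of Psmb5, Psmb6 and Psmb7 to give the immunoproteasome. Peptides pass into the endoplasmic reticulum through the transporter TAP, are trimmed there, and are fitted to class I chains with the help of chaperones. Interferons are known to raise most of these genes, and Nlrc5 is a transactivator that acts at class I promoters together with the factors RFX, NF-Y and CREB.

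Psmb9, Tap1, Psmb8 and Tap2 lie side by side in the MHC on chromosome 17 of the GRCm38 build. Psmb9 (chr17:34181987-34187764, minus strand), Tap1 (chr17:34187553-34197225, plus), Psmb8 (chr17:34197721-34201454, plus) and Tap2 (chr17:34203527-34216321, plus) span 34335 bases, and Tapbp (chr17:33915899-33929292, plus) lies 252694 bases before Psmb9. Psmb10 (chr8:105935735-105938444, minus) and Nlrc5 (chr8:94434356-94527272, plus) share chromosome 8. Tapbpl lies at chr6:125223933-125231860 (minus), Psme1 at chr14:55578123-55581529 (plus) and Erap1 at chr13:74639568-74693201 (plus). Promoter windows from RefSeq (250 bases before to 50 bases after the start, GRCm38.p6) were found for 7 of the 10 genes and searched on both strands for 3 motifs. These were GAAANNGAAA, the core of the interferon-stimulated response element; TTCNNNGAA, the shape of an interferon-gamma-activated site; and CCAAT, the box bound by NF-Y. The windows of Erap1 and Psme1 hold GAAANNGAAA, found in 3.44% of all 32851 windows, and that of Psmb8 holds TTCNNNGAA, found in 8.30%. CCAAT, found in 37.4%, is in the windows of Tap1, Psmb9 and Tapbp. These matches describe letters only, and the windows of Tap1 and Psmb9 are the same DNA over 275 bases, read in opposite directions. The gene spans given above come from another annotation (GENCODE), in which genes can start elsewhere than in RefSeq. The windows of Erap1, Psme1, Psmb8, Psmb9 and Tapbp lie wholly within those spans. The windows printed here are the 3 that hold an interferon-type motif and the one that Tap1 shares with Psmb9, with the motif in capitals and each read 5′ to 3′ on the strand of its gene.
Erap1 promoter, chr13:74639603-74639902 (+ strand): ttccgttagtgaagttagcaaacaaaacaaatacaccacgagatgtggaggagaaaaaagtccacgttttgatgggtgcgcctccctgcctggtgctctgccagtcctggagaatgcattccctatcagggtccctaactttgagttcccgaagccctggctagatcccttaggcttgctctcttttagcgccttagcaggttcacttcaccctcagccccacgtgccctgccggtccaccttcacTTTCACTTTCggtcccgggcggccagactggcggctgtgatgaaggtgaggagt
Psme1 promoter, chr14:55578244-55578543 (+ strand): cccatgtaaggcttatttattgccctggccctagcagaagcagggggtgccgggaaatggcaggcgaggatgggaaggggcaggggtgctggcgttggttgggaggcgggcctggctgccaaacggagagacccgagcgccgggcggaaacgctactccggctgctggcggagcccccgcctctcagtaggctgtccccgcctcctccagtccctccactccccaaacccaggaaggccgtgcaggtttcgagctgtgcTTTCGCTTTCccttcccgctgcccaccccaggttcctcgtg
Psmb8 promoter, chr17:34197945-34198244 (+ strand): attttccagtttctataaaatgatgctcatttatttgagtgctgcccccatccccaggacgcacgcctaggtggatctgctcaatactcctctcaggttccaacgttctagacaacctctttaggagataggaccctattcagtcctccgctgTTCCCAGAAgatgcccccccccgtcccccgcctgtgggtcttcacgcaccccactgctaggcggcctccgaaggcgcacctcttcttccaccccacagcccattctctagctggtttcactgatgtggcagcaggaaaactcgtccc
Tap1 promoter, chr17:34187306-34187605 (+ strand): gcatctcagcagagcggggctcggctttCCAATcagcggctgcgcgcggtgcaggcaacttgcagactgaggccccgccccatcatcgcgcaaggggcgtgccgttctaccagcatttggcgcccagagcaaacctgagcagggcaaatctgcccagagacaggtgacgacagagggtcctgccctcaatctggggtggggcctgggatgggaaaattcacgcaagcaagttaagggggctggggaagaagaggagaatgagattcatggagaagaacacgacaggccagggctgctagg

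There were 7250 barcodes with a median depth of 15287 UMIs (distinct RNA molecules) in the knockout library, and 8038 at 21758.5 in the control library. After filtering, 6761 knockout cells and 7530 control cells were analysed, and 71.7% of them fell in 1 of 8 classes set by a gate gene (Epcam for tumour, C1qa for macrophage, Ly6c2 for monocyte, S100a8 for neutrophil, Cd3e for T, Ncr1 for NK, Fscn1 for mature dendritic cells and Col1a1 for fibroblasts). Levels are CPM, a gene's UMIs scaled by the UMI total of its class and library, ratios are log2 of knockout CPM over control CPM, and brackets hold exact 95% intervals. With 1 library in each group there is no test, and the intervals cover counting error only, not differences between tumours. A gene is counted as higher or lower at a 1.5-fold ratio, among genes with at least 20 UMIs over both libraries in the class. Fermt2, which encodes Kindlin-2, stood at 17.6 CPM in knockout tumour cells and 38.4 CPM in control tumour cells (log2 ratio -1.12, -1.20 to -1.04). In fibroblasts, which are host cells, it stood at 301 CPM in the knockout and 472 CPM in the control (-0.65, -0.77 to -0.54). All 5 markers listed for a class were found in that class in both libraries, except Klra8, at 0 in control NK cells. The libraries shared 13 barcodes. The counts come from 3′ ends, so no level is compared between genes.

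In tumour cells, all 10 genes were slightly higher in the knockout library and none reached 1.5-fold. This rests on 1934 knockout and 2823 control Epcam-gated cells. Their ratios lay between 0.14 and 0.50 with a median of 0.30, and every interval lay above 0. The median of all 17299 genes tested in these cells was 0.125, and 19.9% of them were at least 1.5-fold higher and 6.01% at least 1.5-fold lower. A median-of-ratios scaling takes out the median ratio of genes with at least 20 UMIs in each library, here 0.11. With it, the members' median was 0.19, from 0.03 for Psmb8 to 0.39 for Tapbpl.

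Among the proteasome genes, Psmb10, the immunoproteasome subunit that replaces Psmb7, had the largest tumour ratio. It stood at 446 CPM (442 to 451) in knockout tumour cells and 322 CPM (319 to 325) in control tumour cells, a log2 ratio of 0.47 (0.45 to 0.49). Psmb9, which replaces Psmb6, stood at 281 CPM in the knockout and 234 CPM in the control (0.26, 0.24 to 0.29). Psmb8, which replaces Psmb5, had 711 CPM in the knockout and 644 CPM in the control (0.14, 0.13 to 0.16), the smallest ratio of the 10 genes. The knockout and control intervals did not overlap for any of the 3 subunits. Psme1, a subunit of the proteasome activator PA28, had 516 CPM in the knockout and 431 CPM in the control (0.26, 0.24 to 0.28). Psme2, its partner in PA28, went the same way with 358 CPM in the knockout and 271 CPM in the control (0.40).

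The standard catalytic subunits did not move with them. Psmb5 stood at 199.6 CPM in knockout tumour cells and 198.8 CPM in control tumour cells (0.0056, -0.022 to 0.033). Psmb6 stood at 201 CPM in the knockout and 236 CPM in the control (-0.23), and Psmb7 at 177 CPM in the knockout and 198 CPM in the control (-0.16). Expressed as the percentage of UMIs that the immunosubunit took of its pair, Psmb9 made up 58.3% (57.9 to 58.8) in knockout and 49.8% (49.4 to 50.2) in control tumour cells. Psmb10 made up 71.6% in the knockout and 62.0% in the control, and Psmb8 78.1% in the knockout and 76.4% in the control. Such a percentage depends on how well each gene's 3′ end is captured, so it is read between libraries and classes and not as a ratio of proteins. Of the 18 listed genes of the constitutive proteasome and its activators, all measured, none was 1.5-fold higher or lower in tumour cells, 12 lay above 0 and 6 below, and their median was 0.10.

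**Figure D1:**
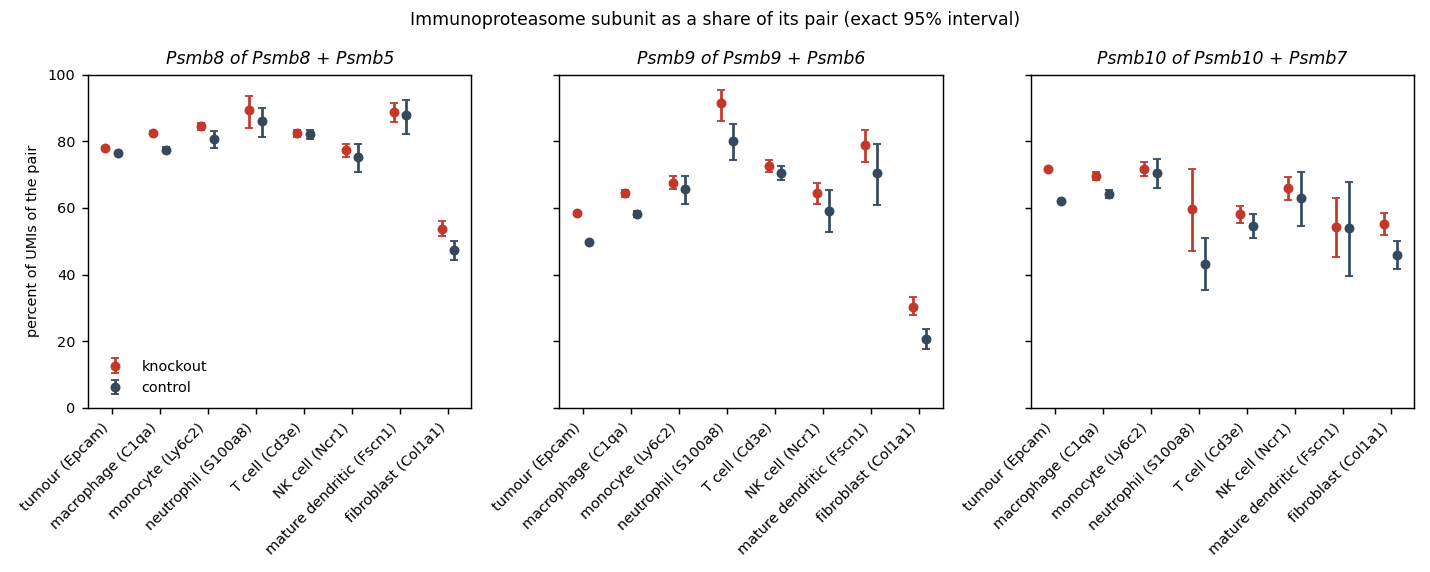
Percent of the UMIs of each subunit pair that came from the immunosubunit (y axis), by cell class (x axis), with knockout left of control and exact 95% intervals. The tumour points of Psmb9 (58.3% knockout, 49.8% control) and Psmb10 (71.6% knockout, 62.0% control) stand apart between the libraries, and fibroblasts have the lowest share for Psmb8 and Psmb9.

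The transporter and loading genes gave the same picture. Tap1, one of the TAP subunits, stood at 96.9 CPM (94.9 to 98.8) in knockout tumour cells and 72.7 CPM (71.1 to 74.2) in control tumour cells (0.41, 0.37 to 0.46). Tap2, the other subunit, had 78.5 CPM in the knockout and 64.6 CPM in the control (0.28, 0.23 to 0.33). Tapbp encodes tapasin, which bridges TAP and the class I chain, and it had 172 CPM in the knockout and 154 CPM in the control (0.16, 0.13 to 0.19). Tapbpl encodes TAPBPR, a peptide editor outside the loading complex, and had the highest ratio, with 34.7 CPM (33.5 to 35.9) in the knockout and 24.5 CPM (23.6 to 25.4) in the control (0.50, 0.43 to 0.57). Tapbpl lies wholly within Vamp1 on the other strand, as Psmb10 does within Gm16156. Among the smaller overlaps, Psmb8 shares 2139 bases with Gm20496 on the other strand, and Tapbp 3422 bases with Zbtb22 on its own strand. Whether counting used the strand is not given in the sources used here. Erap1, which trims peptides in the endoplasmic reticulum, stood at 39.9 CPM in the knockout and 30.6 CPM in the control (0.39, 0.32 to 0.45). Nlrc5 stood at 111 CPM in the knockout and 89.3 CPM in the control (0.32, 0.28 to 0.36).

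**Figure D2:**
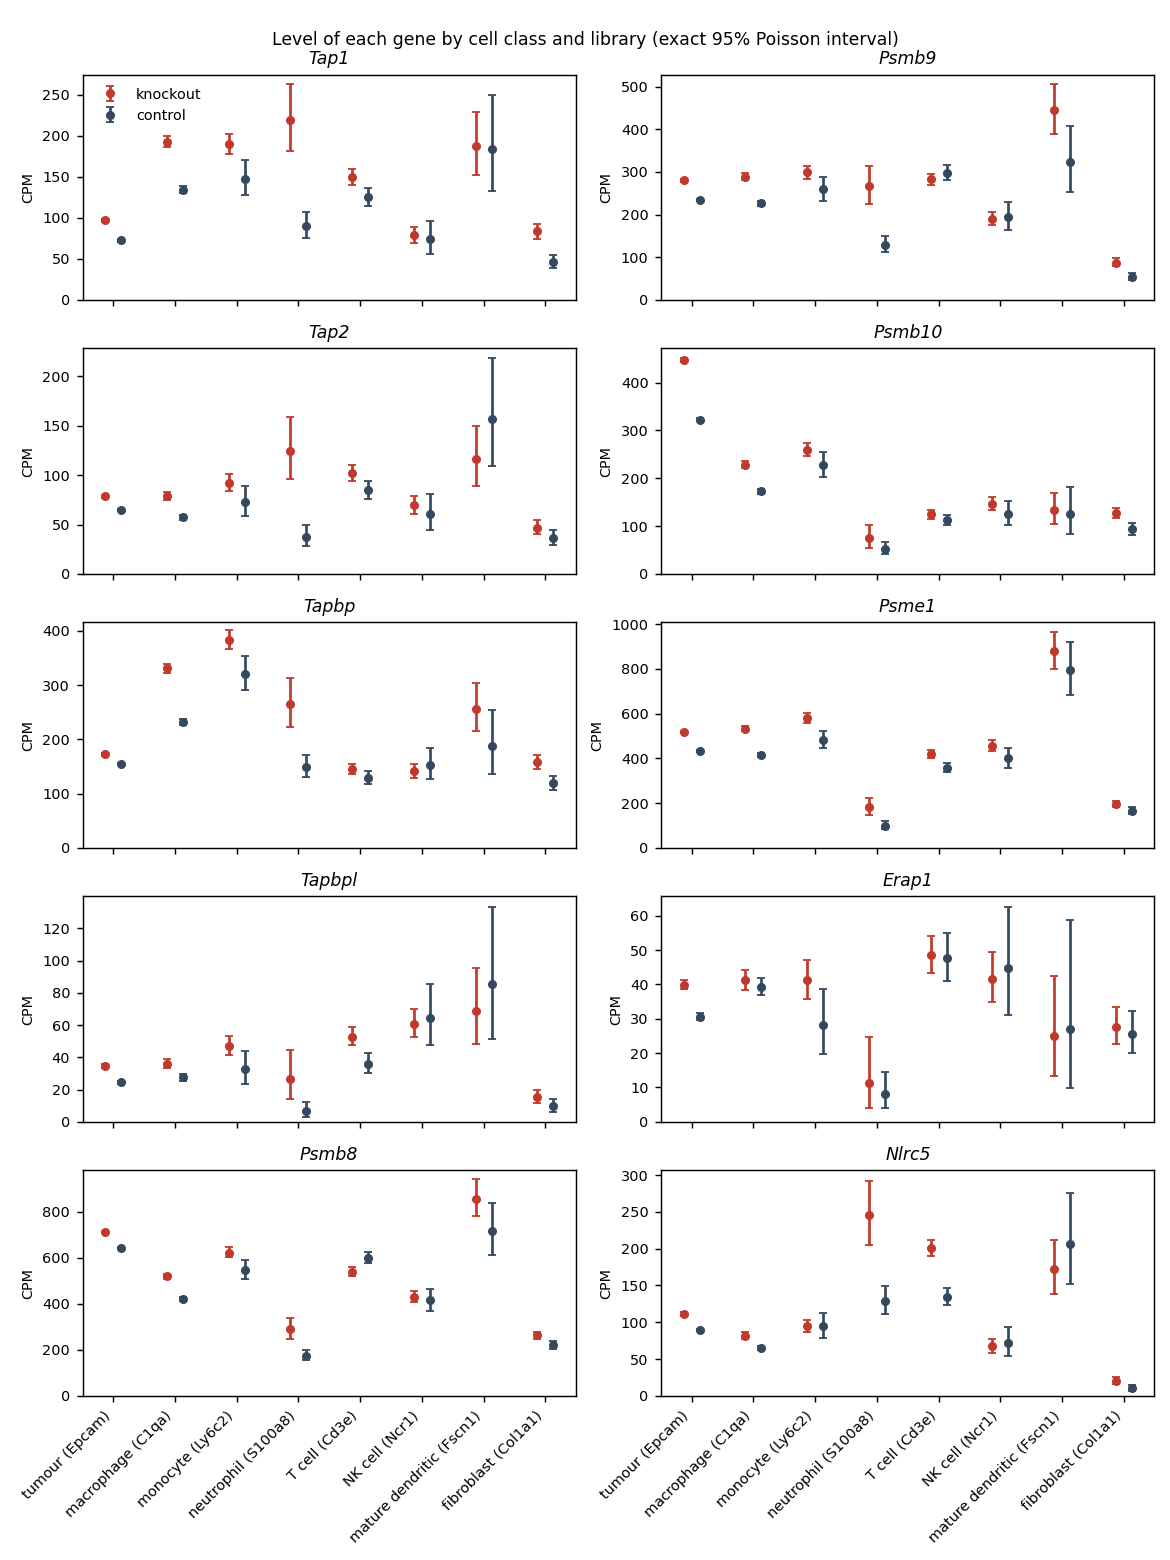
CPM of each gene (y axis, from 0, scaled gene by gene) in 8 cell classes (x axis), with knockout left of control and exact 95% Poisson intervals. All 10 tumour pairs have the knockout point above the control point, for example 96.9 CPM in the knockout and 72.7 CPM in the control for Tap1.

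B2m, H2-K1 and H2-D1 lay below 0 in tumour cells. B2m, the class I light chain, had 1643 CPM in knockout and 2229 CPM in control tumour cells (-0.44). The heavy chain H2-K1 had 1515 CPM in the knockout and 1760 CPM in the control (-0.22), and H2-D1 had 3336 CPM in the knockout and 4111 CPM in the control (-0.30). Of 10 class I chains, all measured, 5 lay above 0 and 5 below, with H2-T23 the highest at 197 CPM in the knockout and 148 CPM in the control (0.42). None was 1.5-fold higher and 1 was lower, namely Mr1, which presents vitamin metabolites, at 2.06 CPM in the knockout and 3.70 CPM in the control (-0.84). Of 5 loading chaperones and partners, none passed 1.5-fold, and their median was 0.10. The 7 other trimming peptidases had ratios between 0.060 and 0.31, and none passed 1.5-fold.

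Among interferon signalling genes, Stat2, a transducer of type I signalling, had 58.8 CPM in knockout and 36.1 CPM in control tumour cells (0.70, 0.65 to 0.76). Socs1, a feedback inhibitor, had 41.3 CPM in the knockout and 26.5 CPM in the control (0.64, 0.57 to 0.71), so both were past 1.5-fold. The 4 interferon receptor chains lay below 0, from -0.20 for Ifnar1 to -0.46 for Ifngr1, which had 25.1 CPM in the knockout and 34.7 CPM in the control. Socs3, a feedback inhibitor of cytokine receptors, had 49.2 CPM in the knockout and 68.8 CPM in the control (-0.48). Of 8 partners of Nlrc5 at promoters, none passed 1.5-fold, 7 lay above 0 and their median was 0.17.

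Tumour cells varied more within each library than the libraries differed. The summed UMIs of the 10 genes per 10000 UMIs of the cell had a median of 24.1 in knockout and 19.1 in control tumour cells. The middle 80% of cells ran from 9.97 to 40.2 in the knockout and from 9.63 to 33.0 in the control, so the distributions overlapped widely. The 5th percentile was 6.79 in the knockout and 7.50 in the control, so the lowest cells did not share the direction of the median. Mammary gland markers, which mark normal gland cells, summed to 195 CPM in knockout and 20.5 CPM in control tumour cells, with 4 of 4 markers found in each. Without the 72 knockout and 21 control cells rich in these markers, the 5th percentile was 7.43 in the knockout and 7.68 in the control, and the members' median ratio was 0.31. Macrophage markers (5 of 5 found in each) summed to 52.0 CPM in knockout and 33.2 CPM in control tumour cells, and their part in the ratios was not tested.

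**Figure D3:**
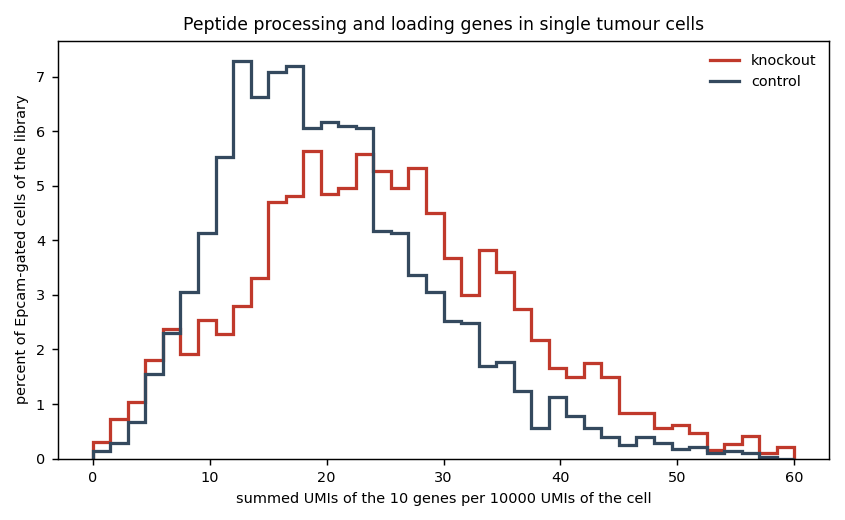
Percent of Epcam-gated cells of each library (y axis) by the summed UMIs of the 10 genes per 10000 UMIs of the cell (x axis, up to 60). The knockout line lies to the right of the control line (medians 24.1 in the knockout and 19.1 in the control), with wide overlap and a shared low tail.

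The share of tumour cells with a UMI followed the levels for most genes. With each cell thinned to 10000 UMIs, which left out 46 knockout and 88 control cells, a Tap1 UMI was found in 55.7% of knockout and 45.4% of control tumour cells, against 87.6% of knockout and 78.4% of control cells without thinning. For Tapbpl the thinned shares were 28.9% in the knockout and 19.6% in the control (unthinned 67.5% in the knockout, 52.6% in the control), and for Nlrc5 56.2% in the knockout and 47.3% in the control (unthinned 82.8% in the knockout, 77.0% in the control). Psmb8 went the other way, with 95.7% of knockout and 97.1% of control tumour cells (unthinned 97.9% in the knockout, 98.6% in the control), while its CPM was higher in the knockout, so no order is read from it.

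Across single tumour cells the immunoproteasome genes varied together most closely, as a description over cells that share a library and its depth. The Pearson correlation of Psmb8 with Psmb9 was 0.75 over knockout and 0.64 over control tumour cells, and that of Psmb8 with Psmb10 was 0.71 over knockout and 0.64 over control cells. Psmb8 with Psme1 had 0.69 over knockout and 0.60 over control cells, and Psmb9 with Psmb10 had 0.68 over knockout and 0.59 over control cells. The median over the 45 pairs of genes was 0.28 in the knockout and 0.26 in the control. Psme1 with Nlrc5 was the lowest pair, at 0.034 in the knockout and -0.079 in the control.

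Most tumour cells lay in 6 clusters with at least 50 cells in each library, and the libraries filled them unequally. The cluster led by the interferon-induced gene Ifit3 held 35.1% of knockout and 10.8% of control tumour cells, whereas the clusters led by Ibsp and by Mt2 held 5.998% and 4.03% of knockout and 29.2% and 23.9% of control tumour cells. Within clusters, the median ratio of the 10 genes was 0.16 in the Ifit3 cluster and 0.11 in the dividing cells led by Cenpf, and lay between 0.35 and 0.48 in the other 4. Tapbpl was above 0 in each cluster, from 0.18 to 0.92, and its mean over the clusters was 0.59, just past 1.5-fold. Psmb10 was likewise above 0 in each, from 0.37 to 0.68. The ratio of Nlrc5 differed in sign between clusters. It was 0.12 in the Ifit3 cluster, 0.19 in the Cenpf cluster and 0.23 in the cluster led by Ghr, with intervals above 0. In the Mt2 cluster (0.066) and the Hbb-bs cluster (-0.016) its intervals included 0. In the Ibsp cluster Nlrc5 stood at 86.3 CPM in the knockout and 112 CPM in the control (-0.37, -0.52 to -0.23). Its mean over the clusters, each weighing the same, was 0.034, against 0.32 over the whole gate. The Nlrc5 levels of the clusters differed within each library, with 139 CPM in knockout and 128 CPM in control cells of the Ifit3 cluster, and 51.2 CPM in knockout and 48.9 CPM in control cells of the Mt2 cluster.

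**Figure D4:**
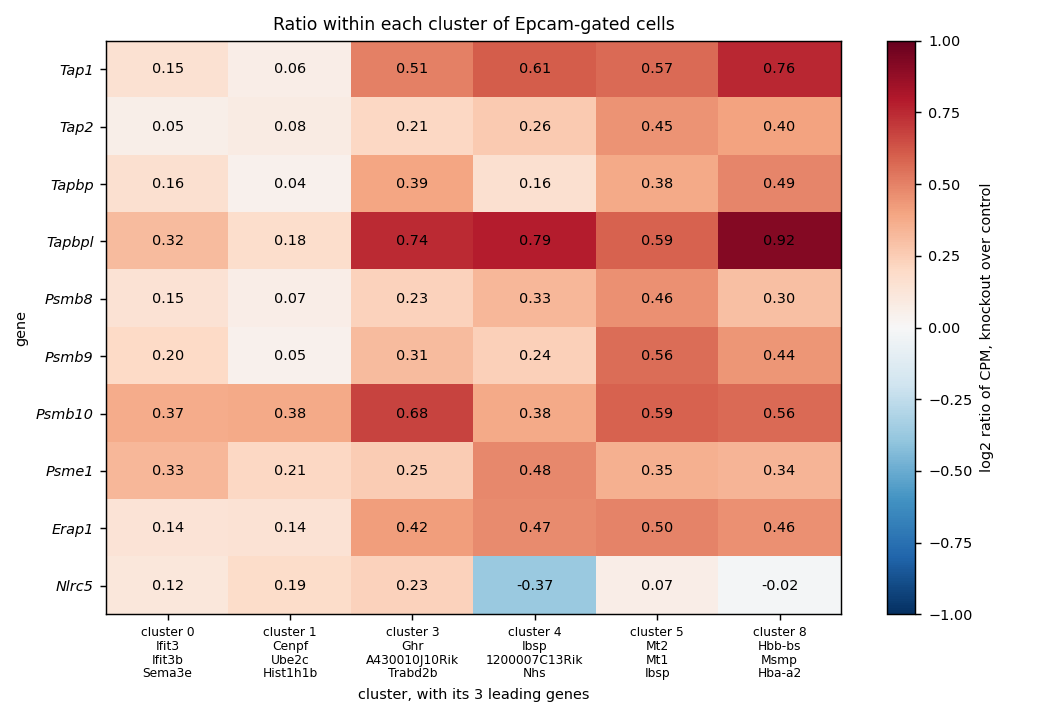
Log2 ratio of CPM, knockout over control, of each gene (rows) within 6 clusters of tumour cells (columns, named by number and 3 leading genes), with red for higher and blue for lower in the knockout. Of the 60 values, those of Nlrc5 in the Ibsp cluster (-0.37) and the Hbb-bs cluster (-0.02) lie below 0.

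Neutrophils had the highest median ratio of the 8 classes. Of the 9 genes with at least 20 UMIs, 8 were 1.5-fold higher in the knockout library and none lower, where 20.7% of the 5843 genes tested were higher and 27.6% lower, and the median ratio was 0.93 against -0.048 for all genes. The class is small and shallow, with 178 knockout cells at a median of 2824 UMIs and 478 control cells at 2543.5, so single genes rest on few molecules. Tap2 had 125 CPM (96.6 to 159) in knockout and 37.4 CPM (27.8 to 49.2) in control neutrophils, a log2 ratio of 1.74 (1.19 to 2.30). Tap1 had 219 CPM (181 to 263) in the knockout and 90.2 CPM (74.95 to 108) in the control (1.28, 0.90 to 1.66). The knockout and control intervals of the TAP genes lay apart.

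Psmb9 had 267 CPM in knockout and 130 CPM in control neutrophils (1.04, 0.71 to 1.37), and Nlrc5 246 CPM in the knockout and 129 CPM in the control (0.93, 0.59 to 1.27). Psme1 had 182 CPM in the knockout and 99.7 CPM in the control (0.86, 0.47 to 1.25), Tapbp 265 CPM in the knockout and 150 CPM in the control (0.82, 0.50 to 1.14), and Psmb8 289 CPM in the knockout and 175 CPM in the control (0.72, 0.42 to 1.02). Tapbpl was also counted as higher (2.00, 0.69 to 3.39), from 14 knockout and 9 control UMIs. Psmb10 was not, at 75.7 CPM in the knockout and 52.8 CPM in the control (0.52, -0.076 to 1.10), and Erap1 had 6 knockout and 11 control UMIs, too few to be counted. With median-of-ratios scaling, which takes out a shift of 0.16 in this class, 7 genes stayed past 1.5-fold and Psmb8 was at 0.57. Per cell, the summed UMIs of the 10 genes had a median of 12.1 per 10000 in knockout and 4.94 in control neutrophils, and 13.5% of knockout and 31.0% of control neutrophils had none.

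Of 17 measured genes in the list of the constitutive proteasome and its activators, 2 were higher (Psme2 and Psma2) and 2 lower (Psma7 and Psme4). Psme2, the partner of Psme1 in PA28, had 182 CPM in the knockout and 92.4 CPM in the control. Irf1, an interferon-induced transcription factor, had 1285 CPM in knockout and 603 CPM in control neutrophils (1.09). Of 7 measured class I chains, 4 were higher and none lower. Of 4 measured genes of the other trimming peptidases, none was higher and 2 were lower, with a median of -0.69. Of 5 loading chaperones and partners, none was higher and 1 was lower, with a median of -0.22. Markers of other cells and states differed too. The 5 neutrophil markers summed to 51731 CPM in the knockout and 62668 CPM in the control, with Cxcr2 at 1462 CPM in the knockout and 669 CPM in the control and Retnlg at 384 CPM in the knockout and 1015.5 CPM in the control. Monocyte markers (5 of 5 in each) summed to 670 CPM in the knockout and 249 CPM in the control. Tumour markers summed to 94.6 CPM in the knockout, with Cldn3 and Krt7 at 0, and to 360 CPM in the control with 5 of 5. Their part in the ratios was not tested.

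**Figure D5:**
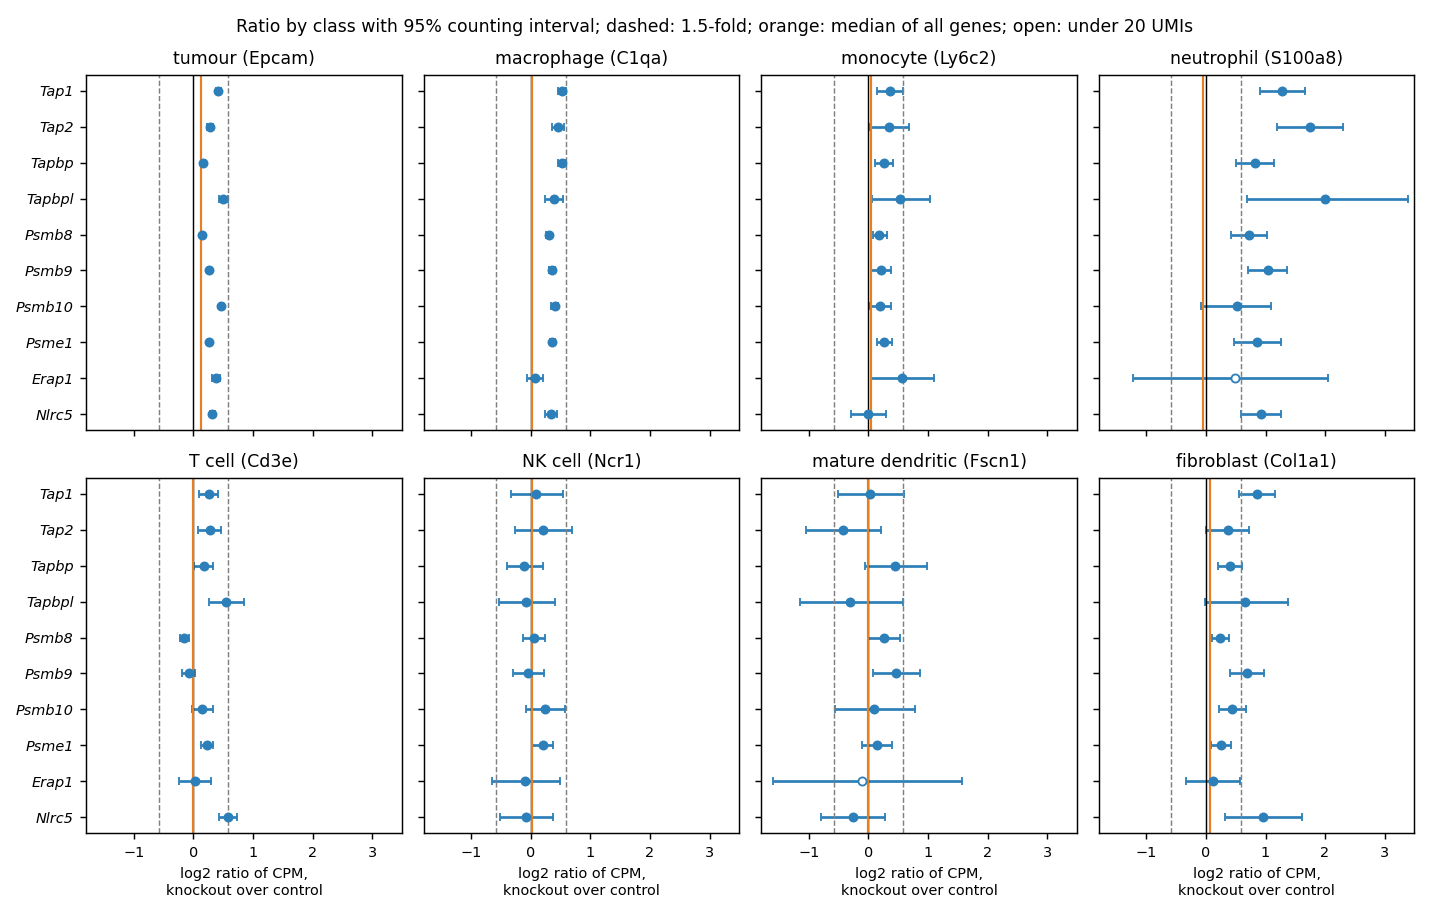
Log2 ratio of CPM, knockout over control (x axis), of each gene (y axis) in 8 cell classes, with 95% counting intervals, dashed lines at 1.5-fold and an orange line at the median of all genes. In tumour cells all 10 points lie between 0.14 and 0.50, in neutrophils 8 of the filled points lie past the right dashed line, and in NK cells the points lie on both sides of 0.

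In macrophages (1107 knockout and 1422 control cells) none of the 10 genes passed 1.5-fold, where 10.0% of genes were higher and 3.56% lower. All 10 lay above 0 with a median of 0.37, against 0.015 for all genes, and the interval of Erap1 alone reached 0. Tap1 had 193 CPM (186 to 199) in knockout and 134 CPM (130 to 139) in control macrophages (0.52, 0.45 to 0.59), and Tapbp 331 CPM in the knockout and 232 CPM in the control (0.51, 0.46 to 0.57). Psmb9 took 64.4% of its pair in knockout and 58.2% in control macrophages. Monocyte markers (5 of 5 in each) summed to 675 CPM in knockout and 400.4 CPM in control macrophages, and other dendritic markers (4 of 4 in each) to 12.9 CPM in the knockout and 1.82 CPM in the control, and their part in the ratios was not tested. In monocytes (465 knockout and 145 control cells) none passed 1.5-fold, where 10.3% of genes were higher and 7.07% lower, and 9 lay above 0 with a median of 0.26. Nlrc5 was the exception, at 94.7 CPM in knockout and 94.8 CPM in control monocytes (-0.0015, -0.29 to 0.29). Of the cells in this gate, 285 of 465 knockout and 95 of 145 control cells lay in clusters named monocyte. Macrophage markers (5 of 5 in each) summed to 1827 CPM in knockout and 2629 CPM in control monocytes. T cell markers (5 of 5 in each) summed to 81.0 CPM in the knockout and 205 CPM in the control, and NK markers (4 of 5 in each, with Klra8 at 0) to 98.6 CPM in the knockout and 318 CPM in the control. Other dendritic markers summed to 618 CPM in the knockout with 4 of 4, and to 453 CPM in the control with Xcr1 at 0. Most of this was Siglech, at 554 CPM in the knockout and 404 CPM in the control. Their part in the ratios was not tested.

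Fibroblasts (95 knockout and 100 control cells) had 4 genes past 1.5-fold higher and none lower, where 12.8% of genes were higher and 7.04% lower. Tap1 had 83.4 CPM (74.6 to 93.0) in knockout and 46.2 CPM (38.5 to 54.9) in control fibroblasts (0.85, 0.55 to 1.16), and Psmb9 had 87.8 CPM in the knockout and 54.4 CPM in the control (0.69, 0.41 to 0.98). Nlrc5 had 20.2 CPM in the knockout and 10.5 CPM in the control (0.95, 0.32 to 1.62), but 1 cell held 25.3% of its knockout UMIs, so its interval is too narrow. Tapbpl had 15.4 CPM in the knockout and 9.73 CPM in the control (0.66, -0.020 to 1.37), with an interval that includes 0. All 10 genes lay above 0, with a median of 0.42 against 0.061 for all genes. Psmb9 took 30.4% of its pair in knockout and 20.5% in control fibroblasts, the lowest shares of the 8 classes. Tumour markers (5 of 5 in each) summed to 178 CPM in knockout and 55.5 CPM in control fibroblasts, which was not tested for its part in these ratios.

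In T cells (623 knockout and 384 control cells) none of the 10 genes passed 1.5-fold, where 9.90% of genes were higher and 7.49% lower, and 8 lay above 0 and 2 below. Nlrc5 was just under the fold, with 201 CPM (190 to 212) in knockout and 135 CPM (123 to 147) in control T cells (0.58, 0.43 to 0.73). Tapbpl followed with 52.9 CPM in the knockout and 36.2 CPM in the control (0.55, 0.26 to 0.84). Psmb8 was lower, with 540.4 CPM (523 to 559) in the knockout and 601 CPM (577 to 626) in the control (-0.15, -0.23 to -0.078), and Psmb9 had a ratio of -0.078 with an interval that includes 0. NK markers (5 of 5 in each) summed to 244 CPM in knockout and 919.9 CPM in control T cells. Monocyte markers summed to 262 CPM in the knockout with 5 of 5, and to 480.2 CPM in the control with Chil3 and Vcan at 0, and the part of these markers in the ratios was not tested. In NK cells (346 knockout and 92 control cells) none passed 1.5-fold, where 11.8% of genes were higher and 8.12% lower, 5 lay above 0 and 5 below, and their median was 0.0039. Psme1 alone had an interval clear of 0, with 457 CPM in knockout and 399.6 CPM in control NK cells (0.19, 0.015 to 0.38). Tumour markers summed to 47.0 CPM in knockout NK cells with 5 of 5, and to 123 CPM in the control with Cldn3 at 0. Mature dendritic markers (39.5 CPM in the knockout, 106 CPM in the control) and neutrophil markers (6.32 CPM in the knockout, 52.8 CPM in the control) differed likewise. T cell markers went the other way (489 CPM in the knockout, 414 CPM in the control). Their part in the ratios was not tested.

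Mature dendritic cells held the highest levels of most of these genes. By the mean of the libraries they ranked first for 7 of the 10 genes, with Psmb8 at 858 CPM (780.3 to 941) in the knockout and 719 CPM (612 to 839) in the control, and Psme1 at 879 CPM in the knockout and 795 CPM in the control. For Psmb8, Psmb9, Psme1 and Tapbpl the lower of their library values was above the values of every other class. For Tap1, Tap2 and Nlrc5 it was not, since knockout neutrophils were higher. Knockout macrophages and monocytes were also higher for Tap1, and knockout T cells for Nlrc5. The counting intervals were also apart for Psme1 and overlapped with another class for Psmb8, Psmb9 and Tapbpl. In the control, 1 cell held 23.2% of the Psme1 UMIs of the class. The top cell held 17.5% for Psmb8, 22.2% for Psmb9 and 26.3% for Tapbpl, so these intervals are too narrow. The class had 41 knockout and 19 control cells, and 6 of the 19 control cells lay in tumour clusters. In clusters named mature dendritic lay 37 of the 41 knockout and 10 of the 19 control cells. Tumour markers summed to 42.1 CPM in the knockout, with Cldn3 at 0, and to 997 CPM in the control with 5 of 5. Endothelial markers (3 of 3 in each) summed to 32.6 CPM in the knockout and 445 CPM in the control. Neutrophil markers (2 of 5 in each) summed to 5.74 CPM in the knockout and 126 CPM in the control. Monocyte markers (216 CPM in the knockout, 40.4 CPM in the control) and macrophage markers (174 CPM in the knockout, 94.3 CPM in the control) went the other way. Their part in the ranks was not tested. With classes taken from clusters, mature dendritic cells ranked first for 4 genes. Between the libraries none of the 9 measured genes passed 1.5-fold, where 19.5% of genes were higher and 22.3% lower, and the result depended on the gate.

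The other genes ranked differently by class. Psmb10 was highest in tumour cells, at 446 CPM in the knockout and 322 CPM in the control, above monocytes at 259 CPM in the knockout and 227 CPM in the control, and the library values of these classes did not overlap. Tapbp was highest in monocytes, at 383 CPM in the knockout and 321 CPM in the control, and overlapped there with macrophages. The monocyte gate also held other dendritic markers, at 618 CPM in the knockout and 453 CPM in the control. Erap1 was highest in T cells, at 48.4 CPM in the knockout and 47.6 CPM in the control, above NK cells at 41.7 CPM in the knockout and 44.8 CPM in the control, although the counting intervals of these classes overlap. By the mean of the libraries, fibroblasts were lowest for 5 genes, neutrophils for 4 and T cells for Tapbp. For Tap1, Tapbp, Tapbpl, Psmb8 and Psme1 the library values of the lowest class overlapped with those of the class ranked next. For Tap2, control neutrophils (37.4 CPM) lay between the fibroblast values (46.8 CPM in the knockout, 36.4 CPM in the control).

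Over the 16 sums of class and library, the genes followed each other unequally, as a description over points that share their libraries. Against the mean of the other 9 genes, Psmb9 had a Pearson correlation of 0.91, Psmb8 of 0.89 and Psme1 of 0.87, whereas Erap1 had 0.38 and Psmb10 0.46. Among 9063 other genes, those closest to the mean of the 10 were Atg10 (0.90), Fbxo7 (0.90), Phlpp1 (0.89), Pqlc3 (0.87) and Enox2 (0.86).

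Over all analysed cells of each library together, Tapbpl had 36.3 CPM in the knockout and 23.7 CPM in the control (0.61, 0.56 to 0.67), and Tap1 117 CPM in the knockout and 83.4 CPM in the control (0.49, 0.46 to 0.52). Psmb8 had 652 CPM in the knockout and 584 CPM in the control (0.16, 0.15 to 0.17). Tumour cells gave 46.9% of knockout and 52.1% of control Tap1 UMIs. In such sums fewer cells of a class and less RNA per cell cannot be told apart.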

How the data were processed

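RNA was measured in 1 knockout and 1 control library. The deposited values are whole-number UMI counts per gene and barcode, not normalized. The matrix header names Cell Ranger 6.0.1 and the submitters' processing notes name Cell Ranger 2.1.1 and mm10, so the version used is uncertain. Barcode suffix 2 was taken as the knockout and suffix 1 as the control because the labels number the libraries so, and nothing else in the files ties suffix to library.

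Barcodes under 500 UMIs, under 200 genes or over 20% mitochondrial UMIs were dropped, and 201 knockout and 217 control doublets called by Scrublet (scanpy 1.11.5) were removed. The knockout library held 180774106 UMIs and the control library 214163620. A cell entered a class with at least 2 UMIs of its gate gene and, per 10000 UMIs, at least 1 of Epcam, Cd3e or Ncr1, 2 of Ly6c2, 4 of C1qa, 8 of Fscn1 or Col1a1, or 16 of S100a8. These thresholds were set after seeing how the gate genes were distributed. Cells passing several gates were left out (112 knockout, 85 control), except that Ly6c2 with C1qa, Cd3e or Ncr1 went to the other gate; 1860 knockout and 1982 control cells passed none. UMIs were summed per class and library. CPM has exact Poisson intervals and ratios have exact conditional binomial intervals (scipy 1.17.1). The ratio intervals were tried on simulated Poisson counts, which follow the model the intervals assume. Such counts leave out the uneven spread of UMIs over cells, so the trial cannot show that the intervals are wide enough here. Clusters came from the Leiden method (igraph 0.11.9, resolution 1, 2000 variable genes, 30 components, 15 neighbours). No test across samples is possible with 1 library per group.

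Members and gene lists were chosen with earlier results of these data known. All members are named in tumour cells, and elsewhere those past 1.5-fold and those with the highest and lowest levels; other named values, such as single clusters, pairs and markers and the pathway genes Irf1, Ifnar1, Psma2, Psma7, Psme4 and H2-T23, were chosen after the values were seen. Of the listed pathway genes, the text names the 3 with the highest and the 3 with the lowest ratio in tumour cells, among those with at least 50 UMIs, plus B2m, H2-K1, H2-D1, Psmb5, Psmb6, Psmb7 and Psme2. One of the genes this rule names, and the counts that rest on it, are not reported here. Likeness used log2(CPM + 1). The list of trimming peptidases uses Nrd1, the files' symbol for Nrdc. Alternatives were other gates, classes from clusters, other cell filters, doublets kept, other scalings, equal weight per cell, the deepest 1% of cells left out, the mean over tumour clusters and a minimum of 50 UMIs. Those without gland, Siglech, tumour-cluster (in the Fscn1 gate) or shared-barcode cells were added after seeing the data.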

Additional observations from a re-analysis of the deposited data

Results flagged for a closer look

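Psmb8 had ratios of opposite sign in 2 host classes, each with an interval clear of 0. The log2 ratio, knockout over control, was 0.72 in neutrophils (289 CPM in the knockout, 175 CPM in the control) and -0.15 in T cells (540.4 CPM in the knockout, 601 CPM in the control). NK markers summed to 244 CPM in knockout and 919.9 CPM in control T cells, and monocyte markers to 670 CPM in knockout and 249 CPM in control neutrophils, and their part in these ratios was not tested. The difference between the classes was not tested, because each group is 1 library.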

How the results depend on the processing

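No paired analysis was possible because each group is 1 library and no replicate could be left out. In tumour cells the members' median of 0.30 was 0.36 with classes from clusters and 0.19 with median-of-ratios scaling, and all 130 member values under the alternatives stayed above 0. The count of members at least 1.5-fold higher in tumour cells was 0, and 1 (Tapbpl) with classes from clusters, with each cell weighing the same and as the mean over tumour clusters. In macrophages the median of 0.37 was 0.45 with each cell weighing the same, when 1 gene (Psmb10) was higher. In T cells, 1 gene (Nlrc5) was higher with looser gates, stricter gates, classes from clusters, median-of-ratios scaling and the deepest 1% of cells left out. In monocytes, 2 were higher with stricter gates and 1 without Siglech cells. In mature dendritic cells, 5 were higher and 1 lower with looser gates, 3 lower with stricter gates, and 3 higher and 1 lower with each cell weighing the same, so no direction is given for that class. The cause of these changes was not tested. The share of all genes past 1.5-fold is not given for any of the alternatives. No count under an alternative is therefore read as a result about these genes. In neutrophils, among the 9 genes measured in the gate, the count of 8 ranged from 7 to 9 and the median from 0.78 to 1.14. With classes from clusters Erap1 too had enough UMIs and 10 of 10 were higher. The interval of Erap1 there included 0 (0.78, -0.34 to 1.89), and the share of all genes is not given for that alternative. In fibroblasts the count of 4 ranged from 3 to 5. Of the member values under the alternatives, 846 moved by less than their counting interval and 74 by more. Neutrophils, with a median of 2824 UMIs in the knockout and 2543.5 in the control, and mature dendritic cells, with 41 knockout and 19 control cells, rest on few UMIs, and every result rests on 1 library per group.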
